A study of Saccharomyces cerevisiae with 5 samples.

Results

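The 8 core histone genes of Saccharomyces cerevisiae lie in 4 divergent pairs, and their replication was read from 5 fitted replication profiles. HTA1 and HTA2 encode histone H2A, HTB1 and HTB2 encode H2B, HHT1 and HHT2 encode H3, and HHF1 and HHF2 encode H4. The pairs were placed by approximate coordinates in the numbering of the deposited tables, whose genome build is not given in the sources used here. HTA2-HTB2 was placed on chromosome II from base 235000 to 237000 and HHT1-HHF1 on the same chromosome from 255000 to 257000, with 20 kb between their middles. HTA1-HTB1 was placed on chromosome IV from 914000 to 916000, and HHT2-HHF2 on chromosome XIV from 575000 to 577000. All positions within 15 kb of a pair were used. These are 64 sampled positions per pair and 232 for the 4 pairs together, of 23837 to 23858 in each sample, since the reaches of the pairs on chromosome II share 24 positions.

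Core histones wrap DNA into nucleosomes, with a pair of each of H2A, H2B, H3 and H4 in every particle. Each replication fork leaves behind it new DNA that must be packed, so the histone genes of yeast are transcribed mainly in S phase, and each pair shares the regulatory DNA between its genes. Forks start at origins and move away from them in both directions until they meet a fork from a neighbouring origin. A locus with an origin beside it is copied when that origin fires, and a locus without one waits for a fork from farther away.

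Okazaki fragments are the short pieces of the lagging strand, and the strand they come from shows which way the fork moved. The galactose group (n = 2) is strain yIW160-SSDDCS in galactose medium, in which Sld2, Sld3, Dbf4, Dpb11, Cdc45 and Sld7, 6 initiation factors, are overexpressed. The glucose group (n = 1) is the same strain in glucose, and the wild-type group (n = 2) is strain yIW160, whose medium is not among its labels. All 5 samples are asynchronous cultures whose growth notes give 30 degrees, 2% sugar for 4 hours and then doxycycline at 40 ug/ml for 2.5 hours, which in this assay represses DNA ligase I so that the fragments stay unjoined. The wild-type samples were sequenced paired-end on Illumina and the other 3 single-end on Ion Torrent, so platform and strain cannot be told apart, nor can galactose medium and overexpression. Nothing in the labels says whether replicates are separate cultures, and all p-values therefore measure only the spread between these samples.

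Each deposited profile is a model made of fork paths, each with a direction, a time in minutes and a probability from 0 to 1. The models hold 3189 to 6353 path segments and move every fork at 2900 bases per minute, a constant of the fit. Read depth is unknown, since the tables hold no counts, and the modelled values carry no error of their own. The lowest mean time was 0 on 16 of 16 chromosomes in every sample. Time 0 is therefore the earliest point of each chromosome in each sample, and times on different chromosomes, or of 1 chromosome in different samples, share no common zero. A pair that is later and a rest of the chromosome that is earlier cannot be told apart on this scale.

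In the reference gene table (used for names, strand and order only), all 8 genes matched and no gene lies between the members of any pair. HTA2 (YBL003C) is the left gene of its pair and is read leftward, and HTB2 (YBL002W) is read rightward, with UTP20 and ECM15 as outer neighbours. HHF1 (YBR009C) lies left of HHT1 (YBR010W), between FLR1 and IPP1. HTB1 (YDR224C) lies left of HTA1 (YDR225W), between CRF1 and ADK1. HHT2 (YNL031C) lies left of HHF2 (YNL030W), between SIW14 and KTR5.

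Of the 4 pairs, 3 had an initiation site beside them, and the H3-H4 pair HHT2-HHF2 on chromosome XIV had none within 8 kb in any sample. An initiation site is a common starting place of rightward and leftward forks whose probability is 0.1 or more, the probability being the share of DNA copies in which the site fires. Sites of different samples within 2.5 kb were joined, which gave 406 sites, 6 of them within 15 kb of a pair. In all, 11.6 to 14.2% of the sampled positions of a sample lay within 2.5 kb of a site. The middles of HTA2-HTB2 and HHT1-HHF1 did so in 5 of 5 samples, that of HTA1-HTB1 in 4 of 5 and that of HHT2-HHF2 in 0 of 5.

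**Figure D1:**
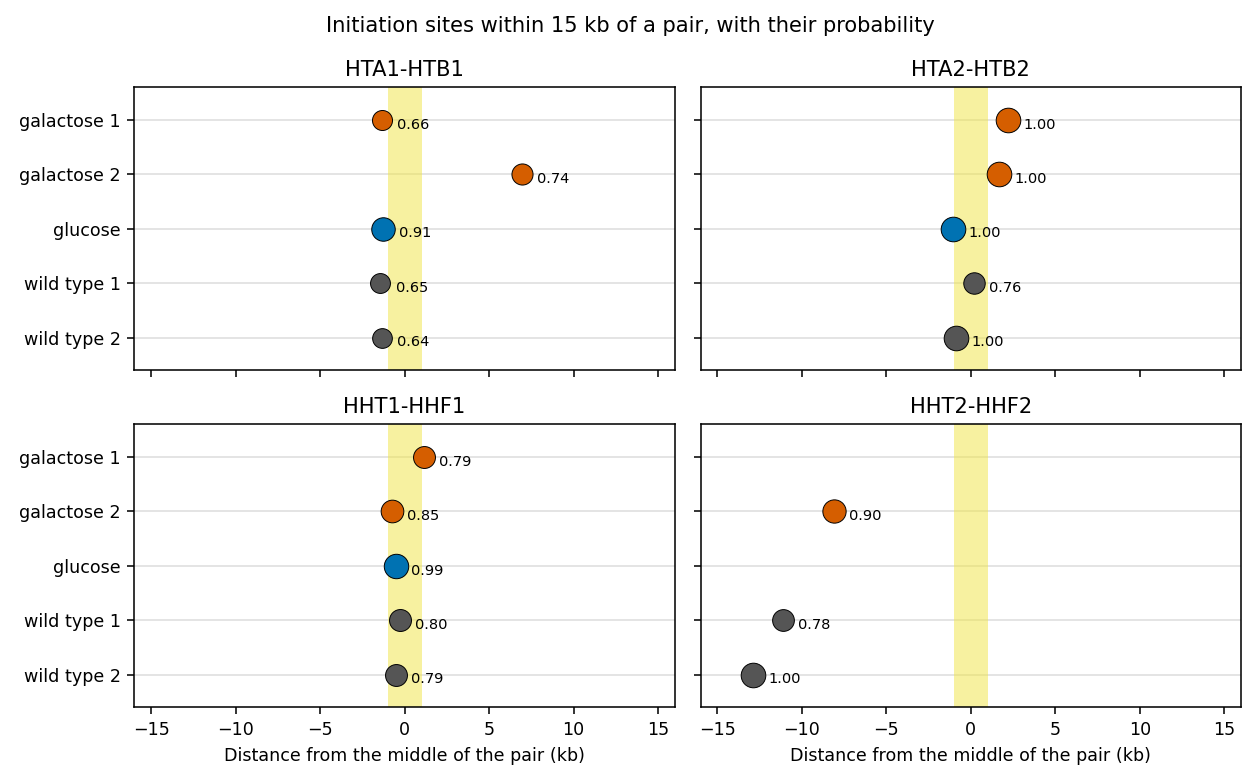
Initiation sites within 15 kb of each histone pair. The horizontal axis is the distance from the middle of the pair in kb, each row is 1 sample, the yellow band is the pair, and the size of a point and the number beside it give the probability of the site. Sites lie at or beside HTA2-HTB2 and HHT1-HHF1 in all 5 samples, whereas galactose replicate 2 has no site at HTA1-HTB1 and the sites of HHT2-HHF2 lie 8.10 kb or more to its left.

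At the H2A-H2B pair HTA2-HTB2, the site fired in nearly all copies. Its probability was 1 in both galactose samples, 1 in glucose, with wild type at 0.760 and 1. Only wild-type replicate 1 was below 1, and in limma (Benjamini-Hochberg over all 406 sites) no contrast passed 0.05 at this site (adjusted p 0.415 for galactose minus wild type and 0.703 for glucose minus wild type). Among the sites of the same sample it exceeded 69.2 to 95.5%.

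The position of that site differed between samples. It lay 2.21 and 1.68 kb right of the middle of the pair in the galactose samples, beyond HTB2. In glucose it lay 1.04 kb to the left, and in wild type 0.162 kb to the right and 0.885 kb to the left. The galactose sites were both to the right of the other 3, while the wild-type replicates lay on opposite sides of the middle. Over the sites that replicates share, the median difference in position was 0.136 kb in galactose (305 sites) and 0.085 kb in wild type (265 sites), with 90th percentiles of 0.679 and 0.811 kb, all limited by the joining distance. Joining only sites within 1 kb made the galactose position a site of its own. Its probability was 1 in both galactose samples and 0 in the others. Limma called it against glucose (adjusted p = 0.0039) and also against wild type (adjusted p = 0.00283), where 27.4 and 30.0% of all sites were called. No group had any spread at this site, so its error rests only on the spread pooled over all sites. These p-values therefore measure no variation between replicates of this site. The same joining distance also put the positions of the wild-type replicates into separate sites, so the calls depend on that distance.

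At the H3-H4 pair HHT1-HHF1, the site fired in most copies of every sample. Its probability was 0.794 and 0.849 in galactose against 0.987 in glucose, with wild type at 0.796 and 0.793. Glucose was above the other 4, and galactose and wild type overlapped. Among the sites of the same sample it exceeded 39.3 and 45.0% in galactose against 92.4% in glucose, with wild type at 80.4 and 71.2%. The difference of galactose minus glucose was -0.166 (SE 0.0358) with an unadjusted p of 0.0207 and a limma adjusted p of 0.0649, and it passed the threshold on the arcsine scale (adjusted p = 0.0356). The site lay within 1.15 kb of the middle of the pair in every sample. In galactose replicate 1 it was 1.15 kb to the right, and in the other 4 samples 0.296 to 0.757 kb to the left.

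The other H2A-H2B pair, HTA1-HTB1, had a site just outside HTB1, less used than those of HTA2-HTB2 and HHT1-HHF1. Its probability was 0.662 in galactose replicate 1, 0.913 in glucose, with wild type at 0.653 and 0.642, at 1.25 to 1.43 kb left of the middle. Galactose replicate 2 had no site there. It had a site of probability 0.736 at base 921956 on chromosome IV, 6.96 kb to the right, which no other sample had. The galactose replicates thus differed from each other at this pair more than either wild-type replicate differed from galactose replicate 1, and neither site passed the test (adjusted p 0.361 and 0.624 for galactose minus glucose).

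Near HHT2-HHF2 the sites lay at a distance and differed between samples. Wild type had a site at 11.1 and 12.9 kb to the left, with a probability of 0.782 and 1, at base 564851 in replicate 1 and 563131 in replicate 2 on chromosome XIV. No galactose sample and no glucose sample had a site there. Galactose replicate 2 had one at base 567901, 8.10 kb to the left, with a probability of 0.897, and galactose replicate 1 and glucose had none within 15 kb of the pair.

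Across the 6 sites, limma called 0 for galactose minus glucose, 1 for galactose minus wild type and 0 for glucose minus wild type. Over all 406 sites it called 29.1, 39.7 and 1.72% in these contrasts. Neither galactose count at the pairs exceeded that share. At an unadjusted p under 0.05 the counts were 1, 1 and 2. The site called was that of wild type left of HHT2-HHF2, which was lower in galactose by a probability difference of -0.891 (SE 0.0927, adjusted p = 0.0171). A site at 0 in both galactose samples has no spread of its own in that group, so its error rests on the wild-type replicates and the pooled spread. In glucose minus wild type the difference was the same and the adjusted p was 0.0808. The call was kept on the arcsine scale (limma adjusted p = 0.0313) and with sites of probability at least 0.2 (0.0168). It was lost when either galactose replicate was left out, at the same difference. It was kept without wild-type replicate 1 or 2, at differences of -1 and -0.782. Fits without 1 replicate have 1 residual degree of freedom and cannot tell whether the call rests on 1 sample. With other joining distances the call was lost, at 1 kb, where the wild-type positions are separate sites (adjusted p 0.429 for each), and at 5 kb, where they join that of galactose replicate 2 (0.401).

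HTA2-HTB2 and HHT1-HHF1 were among the first windows of their chromosome in glucose and wild type, HTA1-HTB1 was so in wild type, and none of them was in galactose. Mean fitted time was averaged in 2389 windows of 5 kb, laid so that each pair falls into 1 window. The window of HTA2-HTB2 had a mean time of 6.53 and 6.03 min in galactose against 0.479 min in glucose, with wild type at 0.295 and 0.418 min. On chromosome II this pair was the earliest window of all 162 in glucose and in both wild-type samples, and the zero of that chromosome lies within it. In galactose 52.5 and 34.6% of the windows of the chromosome were earlier, and the galactose samples did not overlap the other 3.

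HHT1-HHF1, on the same chromosome, had a time of 5.70 and 6.21 min in galactose against 1.96 min in glucose, with wild type at 0.503 and 2.03 min. It was among the earliest windows outside galactose, with 1.23% of the chromosome earlier in glucose, with wild type at 0.617 and 3.09%. The galactose samples were at 42.6 and 37.0%. Since these 2 pairs share a chromosome, the time between them needs no common zero. HHT1-HHF1 minus HTA2-HTB2 was -0.826 and 0.179 min in galactose against 1.49 min in glucose, with wild type at 0.209 and 1.61 min. The H3-H4 pair was thus later than its H2A-H2B neighbour in 4 of 5 samples, and wild-type replicate 1 lay close to galactose replicate 2.

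HTA1-HTB1 had times of 18.2 and 17.1 min in galactose against 24.3 min in glucose, with wild type at 1.16 and 9.06 min. On these minutes, which share no zero between samples, the wild-type replicates were far apart and glucose had the highest value of the 5. Within chromosome IV the order was another, with 67.2 and 66.6% of 305 windows earlier in galactose against 35.4% in glucose, with wild type at 0.656 and 4.92%. Galactose was latest on that scale, glucose lay between, and wild type was among the earliest windows.

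HHT2-HHF2 had times of 9.95 and 7.24 min in galactose against 12.8 min in glucose, with wild type at 4.43 and 4.40 min. In the order of the 156 windows of chromosome XIV it stood at 93.6 and 19.9% in galactose against 59.0% in glucose and 11.5% in both wild-type samples. The galactose replicates were thus on either side of glucose. Their chromosome medians, 5.75 and 15.2 min, differed more than the times of the pair itself.

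**Figure D2:**
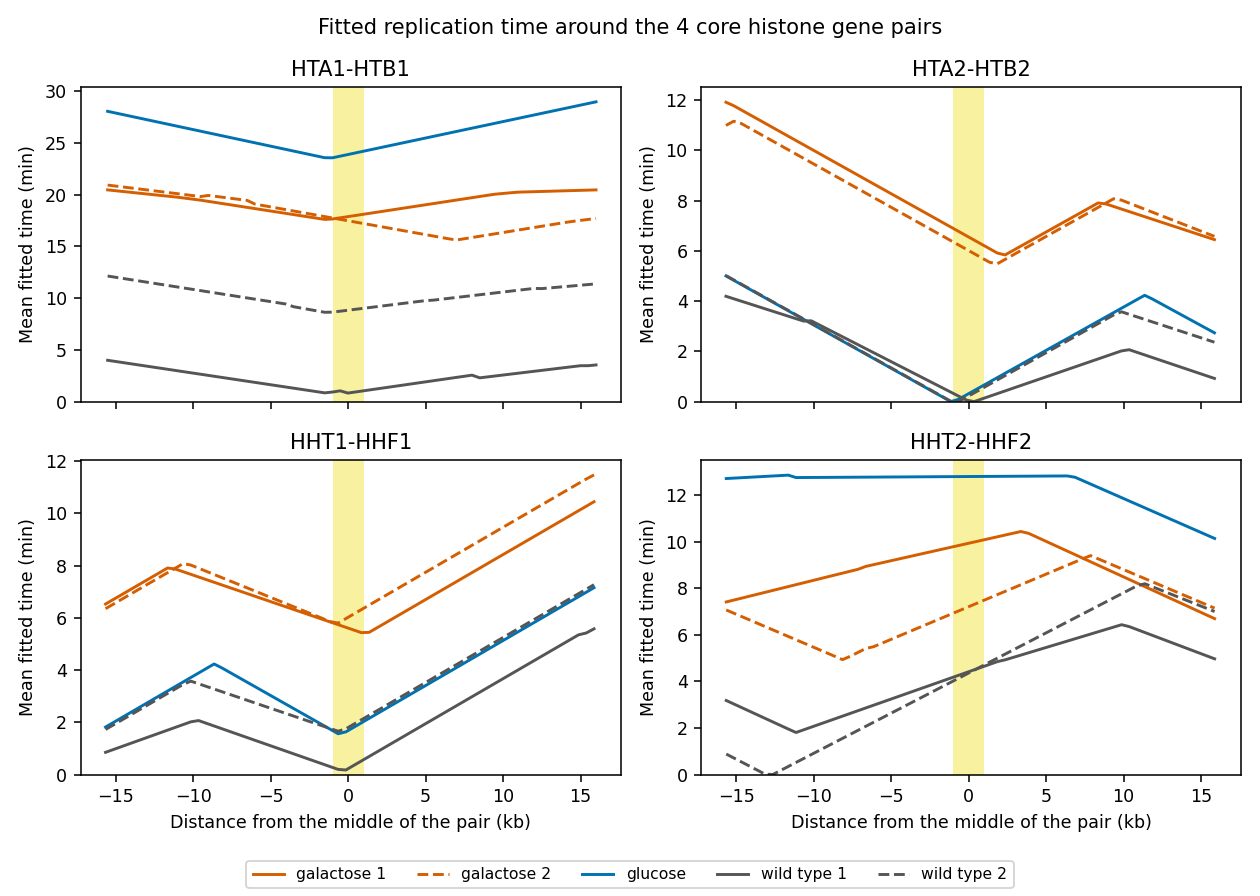
Mean fitted replication time around each histone pair. The horizontal axis is the distance from the middle of the pair in kb and the vertical axis the deposited mean time in minutes with its own range in each panel, with 1 line per sample and the pair in yellow. HTA2-HTB2 and HHT1-HHF1 sit in or beside a local minimum in all 5 samples, HTA1-HTB1 in 4 of 5, and HHT2-HHF2 on a slope or a flat stretch, and levels are not on a common zero between panels or between samples.

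On the deposited minutes, limma called 0 of the 4 windows in each contrast (2 residual degrees of freedom, adjustment over all 2389 windows), against 7.49% of all windows for galactose minus glucose, 7.79% for galactose minus wild type and 3.60% for glucose minus wild type. At an unadjusted p under 0.05 the counts were 1, 2 and 2 of 4. The lowest adjusted p was 0.0987, for HTA1-HTB1 in galactose minus wild type (12.5 min, SE 3.26). All 179 windows called for galactose minus glucose were earlier in galactose. HTA2-HTB2 was 5.80 min later (SE 2.08, adjusted p = 0.184). Its window holds the zero of its chromosome in glucose and wild type, so it could hardly come out earlier in galactose. With each sample centred on its median over all windows, HTA1-HTB1 was called later in glucose than in wild type (20.2 min, SE 3.80, adjusted p = 0.0431, with 7.24% of all windows called), and within its chromosome it was not, as given next.

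Because the zero of time is set on each chromosome, the same windows were also tested after the median of the chromosome was taken away in each sample, a setting chosen after the data had been seen. HTA2-HTB2 then stood 0.243 and -1.95 min from its chromosome's median in galactose against -17.0 min in glucose, with wild type at -17.1 and -15.0 min. Galactose minus glucose was 16.2 min (SE 2.97, limma adjusted p = 0.0243) and galactose minus wild type 15.2 min (SE 2.43, adjusted p = 0.0129). HHT1-HHF1, which shares that median, differed by 14.4 min (SE 3.04, adjusted p = 0.0406) and 14.0 min (SE 2.48, adjusted p = 0.0174).

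HTA1-HTB1 stood 4.75 and 3.22 min after its chromosome's median in galactose, and at -10.4 min in glucose, with wild type at -13.9 and -9.36 min. Galactose was later by 14.4 min than glucose (SE 3.19, adjusted p = 0.0461) and by 15.6 min than wild type (SE 2.60, adjusted p = 0.0144). HHT2-HHF2 stood at 4.20 and -7.96 min in galactose against 0.928 min in glucose, with wild type at -8.27 and -8.77 min, and was not called (adjusted p 0.784 and 0.316). Relative to their chromosome, then, 3 of 4 pairs were called later in galactose than in glucose and 3 of 4 later than in wild type. Over all windows 4.73 and 4.65% were called later and 5.82 and 10.1% in either direction. HTA2-HTB2 holds the zero of its chromosome in glucose and wild type, so its centred value there is nearly the chromosome median with its sign turned. HHT1-HHF1 lies close to that zero and shares the median, so the calls of these pairs are not separate results. For glucose minus wild type 0 of 4 were called in limma, with 0 at an unadjusted p under 0.05, against 0.00% of all windows called later and 4.52% in either direction.

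The calls against glucose were closer to the threshold than those against wild type. In 10 kb windows they came to 2 and 3 of 4, where 4.20 and 10.1% of all windows were called. None of the 3 pairs kept its call in either contrast when any 1 of the 4 replicated samples was left out. Their differences kept their direction. These fits have 1 residual degree of freedom and called few or none of all windows in these contrasts. They cannot tell whether a call rests on 1 sample. On ranks within the chromosome only HTA1-HTB1 against wild type passed (64.1 percentage points, adjusted p = 0.0371), where 8.75% of all windows were called. Both galactose samples ranked above the other 3 at 3 of 4 pairs, as did 21.9% of all windows, and below them at 0 of 4, as did 19.9%. HTA2-HTB2 ranked at 0% in glucose and in both wild-type samples, so it could not rank lower in galactose. HHT1-HHF1 at 0.617 to 3.09% in these samples, and HTA1-HTB1 at 0.656 and 4.92% in wild type, had little room to do so. The shares over all windows are therefore not a matched background for these counts, nor for the calls after centring. The chromosome medians differed as well, each counted from the earliest point of the chromosome in its sample. That of chromosome II was 6.28 and 7.99 min in galactose against 17.5 min in glucose, with wild type at 17.4 and 15.4 min, so the median window was closer in time to the first one in galactose. That of chromosome IV was 13.4 and 13.9 min in galactose against 34.7 min in glucose, with wild type at 15.1 and 18.4 min. Which of the pair and the rest of the chromosome moved was not tested and cannot be told apart with this zero.

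**Figure D3:**
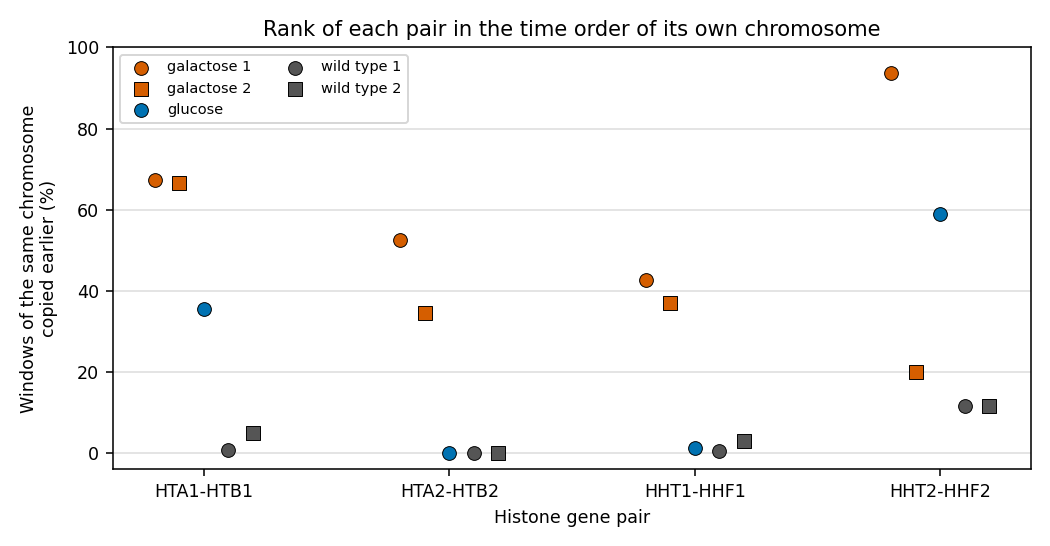
Rank of each histone pair in the time order of its own chromosome. The vertical axis is the percentage of 5 kb windows of the same chromosome with an earlier mean time in that sample, and each point is 1 sample. The galactose points lie above the other 3 at HTA1-HTB1, HTA2-HTB2 and HHT1-HHF1, and lie far apart, at 93.6 and 19.9%, at HHT2-HHF2.

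Following each fork back to its start showed where the copies of a pair came from. At the middle of HTA2-HTB2, 100% of forks came from the pair's own site in 4 samples, over 0.885 to 2.21 kb. In wild-type replicate 1 it gave 76.5%, and 19.2% came leftward from the site at HHT1-HHF1, 19.7 kb away. In return, the site at HTA2-HTB2 sent forks rightward through HHT1-HHF1, which made up 20.6 and 15.1% of forks there in galactose against 1.25% in glucose, with wild type at 15.6 and 20.7%. The rest at HHT1-HHF1 came almost all from its own site, from 79.3% in wild-type replicate 2 to 98.7% in glucose.

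Forks of these neighbouring sites met between the pairs. The meeting point lay at base 244462 and 245462 of chromosome II in galactose against 247378 in glucose, with wild type at 246213 and 245764. Its probability was 0.794, 0.849, 0.987, 0.605 and 0.793 in this order. In every sample the H2A-H2B and H3-H4 pairs of chromosome II were thus mostly copied from separate sites, by forks that met 8.46 to 11.4 kb right of the middle of HTA2-HTB2.

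HTA1-HTB1 drew on 3 fork paths in glucose and 5 in each of the other samples. Its own site gave 66.9% of forks in galactose replicate 1, 92.6% in glucose, with wild type at 67.5 and 65.7%, and in galactose replicate 2 the site 6.96 kb away gave 74.0%. A site near base 878198 of chromosome IV, 36.8 kb to the left, sent 16.3% of the forks in galactose replicate 1, and one at base 877828 sent 11.1% in replicate 2. In wild type, forks from 102 kb to the right, at bases 1016716 and 1017212, made up 17.1 and 21.3%. Such far forks came late, 28.4 and 33.7 min on the scale of that chromosome, while the near ones came at -10.1 and -0.809 min. A path may lie below 0 because the zero is that of the mean. The SD over fork paths at this pair was 17.7 and 14.9 min in wild type, more than at 99.2 and 98.0% of window middles. It was 6.71 and 5.04 min in galactose and 7.80 min in glucose, more than at 91.6, 87.1 and 82.9%. The median SD over window middles was 2.48 and 1.71 min in galactose against 4.68 min in glucose, with wild type at 6.47 and 5.06 min.

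HHT2-HHF2 was copied by forks from far away in galactose replicate 1 and glucose. In galactose replicate 1, 71.7% came rightward from base 544973 of chromosome XIV, 31.0 kb away, and 26.0% leftward from base 608943, 32.9 kb away. In glucose these shares were 50.6 and 42.7%, from bases 543793 and 608981. Galactose replicate 2 took 90.6% from its site 8.10 kb away, wild-type replicate 1 took 78.4% from 11.1 kb and 13.5% from base 609063, and wild-type replicate 2 took 100% from 12.9 kb. Forks met right of the pair in every sample, 3.52 and 7.85 kb from its middle in galactose against 6.66 kb in glucose, with wild type at 9.96 and 11.2 kb.

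**Figure D4:**
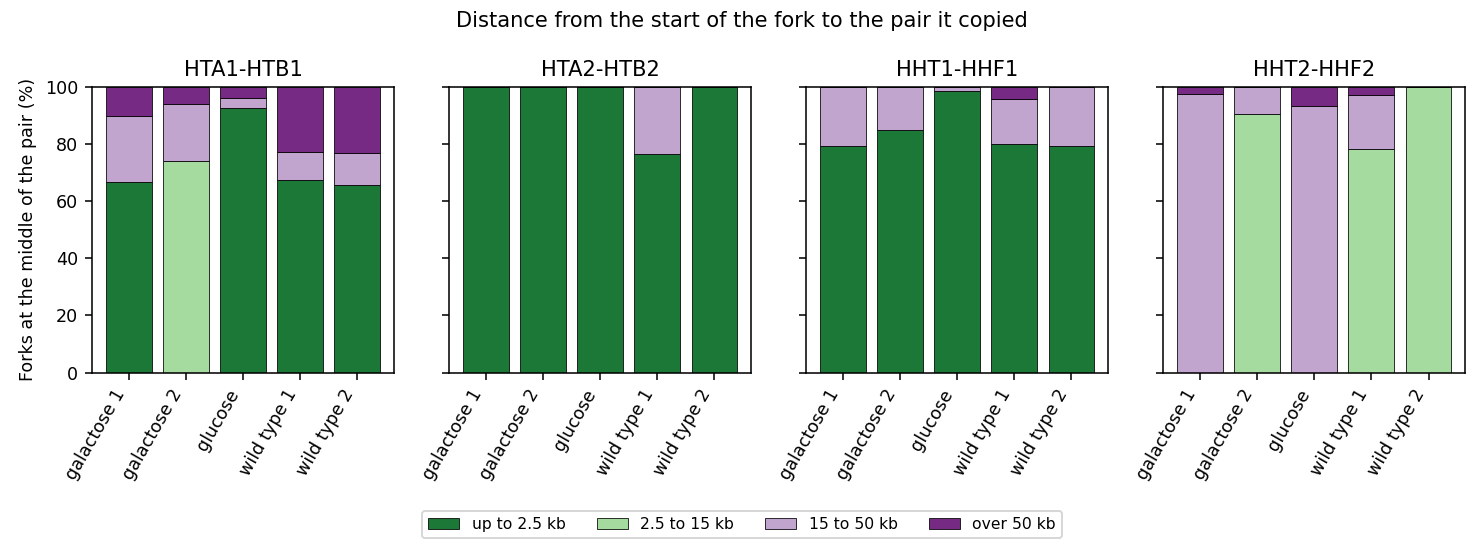
Distance from the start of a fork to the histone pair it copied. Each bar is 1 sample and divides the forks at the middle of the pair (in %, summing to 100) by the distance to their start. At HTA2-HTB2 and HHT1-HHF1 most forks started within 2.5 kb in all samples, and at HHT2-HHF2 none did.

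The mean distance travelled by a fork before it reached a pair differed widely among the pairs. To HTA2-HTB2 it was 2.21 and 1.68 kb in galactose against 1.04 kb in glucose, with wild type at 5.52 and 0.885 kb. To HHT1-HHF1 it was 0.759 to 5.79 kb. The medians over all windows were 13.3 to 25.4 kb, and at most 8.46% of windows had a shorter distance than either of these pairs. To HTA1-HTB1 forks travelled 16.5 and 16.1 kb in galactose against 6.42 kb in glucose, with wild type at 28.0 and 28.7 kb, and to HHT2-HHF2 32.2 and 10.5 kb, 34.4 kb, and 16.5 and 12.9 kb in the same order. Glucose had the shortest distance to HTA1-HTB1 and the longest to HHT2-HHF2. No test was made of these distances, which come from 1 model per sample.

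Fork direction changed within or beside the pairs that hold a site. The share of rightward forks in the window of HTA2-HTB2 was 13.6 and 22.7% in galactose against 68.2% in glucose, with wild type at 42.5 and 68.2%. Galactose lay below the other 3, and its site lay right of the pair. As a share from 0 to 1, galactose minus glucose was -0.5 (SE 0.142, unadjusted p = 0.0429, limma adjusted p = 0.144) and galactose minus wild type -0.372 (SE 0.116, adjusted p = 0.134). At the middle of the pair the contrast was sharper, with 0% rightward in both galactose samples, 100% in glucose, and 4.26 and 100% in the wild-type samples. The wild-type replicates, whose sites lie on either side of the middle, thus differed nearly as much as galactose and glucose.

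The window of HHT1-HHF1 held 45.8 and 73.0% rightward forks in galactose against 59.6% in glucose, with wild type at 67.2 and 67.6%, and galactose overlapped the others. That of HTA1-HTB1 held 80.2 and 11.1% in galactose against 91.9% in glucose, with wild type at 79.4 and 73.9%. Galactose replicate 2, whose site lay to the right, stood alone there. HHT2-HHF2 held 71.7 and 90.6% in galactose against 50.6% in glucose, with wild type at 83.3 and 100%, and glucose was the lowest of the 5. In limma 0 of 4 windows were called for galactose minus glucose, for galactose minus wild type and for glucose minus wild type, against 11.0, 20.8 and 0.00% of all windows, and at an unadjusted p under 0.05 the counts were 1, 0 and 0.

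**Figure D5:**
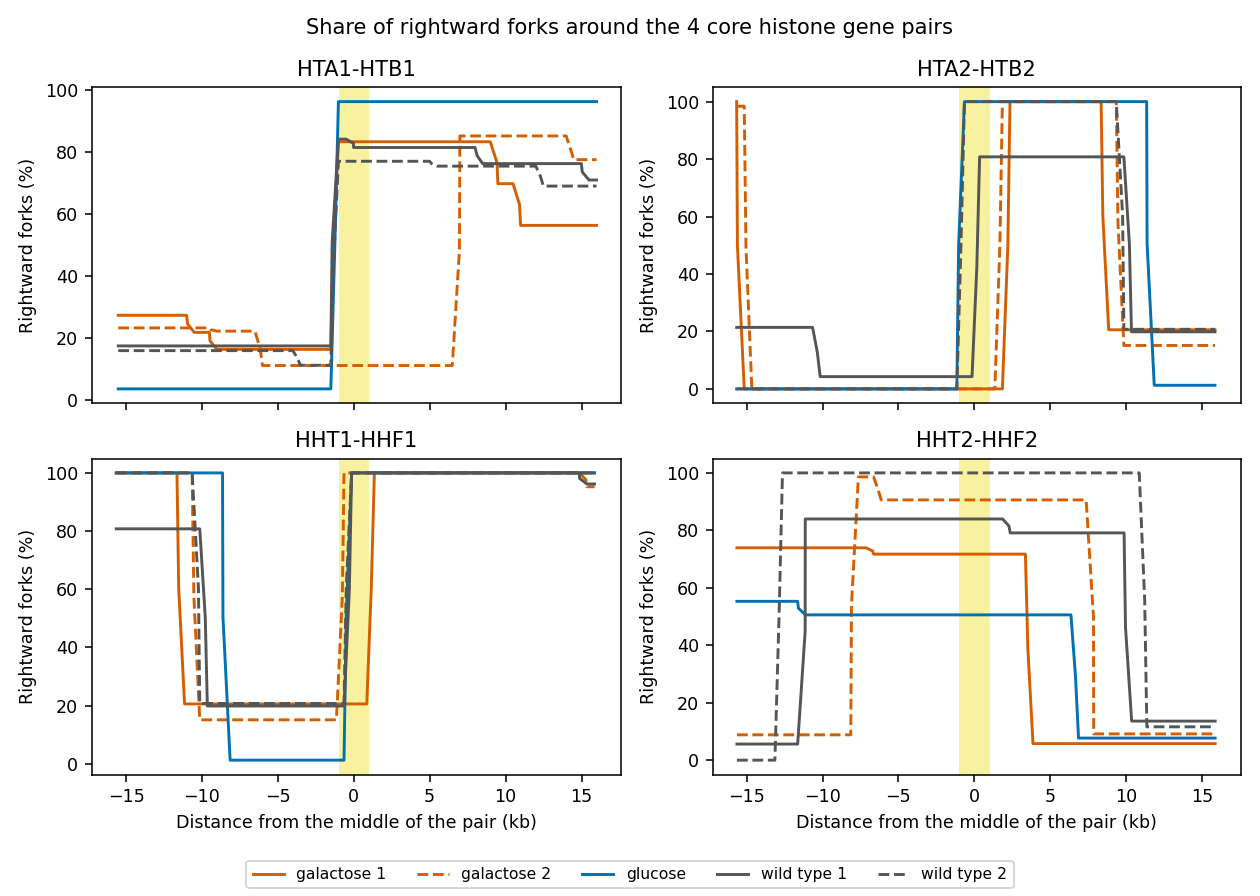
Share of rightward forks around each histone pair. The horizontal axis is the distance from the middle of the pair in kb and the vertical axis the percentage of rightward forks, with 1 line per sample and the pair in yellow. A rise marks initiation and a fall marks termination. The rise at HTA2-HTB2 lies left of or within the pair in glucose and wild type and to its right in galactose, and HHT2-HHF2 lies on a plateau in all 5 samples.

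Since the genes of a pair are read away from each other, a fork that crosses the whole pair runs with the transcription of one gene and against the other. HHF2 was copied mostly in the direction of its transcription in galactose and wild type (71.7 to 100% of forks) and HHT2 mostly against it. In glucose the forks were split nearly evenly, with 50.6% in the direction of HHF2. HTA1 was copied with transcription in 4 of 5 samples (73.9 to 91.9%) and in galactose replicate 2 against it (11.1%), and HTB1 the other way round. Where a site lies inside the pair, both genes can be copied with transcription. At the outer ends of HHT1-HHF1, 79.3 to 98.7% of forks ran with HHF1 in the 5 samples. At the HHT1 end 100% ran with transcription in 4 of 5, and 20.6% in galactose replicate 1. The low value rests on the approximate edge of the pair at base 257000, since the site of that sample lay at base 257148. Over the window it had 45.8% of forks with HHT1, against 59.6 to 73.0% in the others. HTA2 was copied with transcription at its outer end in 4 of 5 samples (95.7 to 100%) and in glucose against it (0%). That exception rests on the approximate edge of the pair at base 235000, since the site lay at base 234961 in glucose and at 235115 in wild-type replicate 2, and over the window both samples had 31.8% of forks with HTA2. HTB2 was copied with transcription in glucose and wild type (80.8 to 100%), and in both galactose samples against it (0%). These values at the outer ends, chosen after the data had been seen, were over 50% in 26 of 40 combinations of gene and sample, and were not tested. Over the window the count was 20 of 40, which the opposite strands of each pair fix by construction.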

How the data were processed

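Okazaki fragments of 5 asynchronous cultures had been sequenced, and the authors deposited a fitted replication model per sample. Per the labels, the deposited tables hold line segments of forks with their times in minutes and their probability, a fraction from 0 to 1, the same paths sampled along the chromosomes, and the weighted mean time of each position in minutes. The software and the genome build are not stated, that is, not given in the sources used here. Fragment counts were not analysed here, so depth is unknown. The deposited means were recomputed from the paths and differed by at most 0.000537 min. Times were averaged in 5 kb windows (2389 in all, each with 50% or more of its positions) that start 3.5 kb into each chromosome, and the rightward share likewise. Sites of at least 0.1 probability were joined within 2.5 kb, and a sample without one was set to 0. The group tests used limma 3.58.1 under R 4.3.3 (two-sided moderated tests from lmFit and eBayes over 3 groups and 5 samples), with Benjamini-Hochberg adjustment over all windows or sites and a threshold of 0.05. This takes the spread of the glucose group, which has 1 sample, from the replicated groups, and neighbouring windows share forks. Each fork over a pair was followed back through the segments to its start. The limma step was tested on simulated data. Python 3.11.15 with numpy 2.4.6, pandas 2.3.3 and matplotlib 3.10.9 did the rest.

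The rule for named items takes the 8 genes, every site within 15 kb of a pair and every site that supplies at least 10% of the forks of a pair in any sample. Members, lists and tests were chosen with earlier results of these data known. Alternatives were other zeros and scales of time, window tilings and sizes, joining distances, reaches and probability minimums, the arcsine scale, fits of only the groups compared, and each replicate left out. The histone gene regulators and chaperones could not be placed without an annotation of the build used and were not analysed here.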

Additional observations from a re-analysis of the deposited data

How the results depend on the processing

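Of the counts and percentiles recomputed under other settings, 111 stayed within the limits set for them and 26 moved. Of the values of single pairs and sites, 417 kept their direction and side of the threshold, 26 passed it and 29 turned their direction. Another 2 lost it (both the site of wild type left of HHT2-HHF2, without either galactose replicate). Part of the 417 could not change. Other reaches around a pair left the fits of single sites as they were, as did fitting galactose and wild type alone for their contrast. A difference of 0 cannot turn its direction. No paired analysis was possible because the titles name galactose E and G, glucose F and wild type A and B, which share no letter or number between groups, and the replicate numbers used here follow accession order and only name a sample. Windows with a pair called for time, 0 of 4 as reported, became 3 and 3 (galactose minus glucose and minus wild type) after centring each chromosome, 2 and 3 with that centring in 10 kb windows, and 1 on ranks within the chromosome (galactose minus wild type). Centring each sample on its median over all windows gave 1 for glucose minus wild type, HTA1-HTB1 (20.2 min, adjusted p = 0.0431, where 7.24% of windows were called). Of the sites near pairs, galactose minus glucose called 1 on the arcsine scale (26.4% of all sites) and 1 with sites joined within 1 kb (27.4%). Galactose minus wild type called 0 with sites joined within 5 or 10 kb (43.3 and 44.0%) and 0 with sites within 10 kb of a pair (39.7%), and its 1 call with sites joined within 1 kb (30.0%) was the galactose site of HTA2-HTB2, not that near HHT2-HHF2. Leaving out 1 replicate gave 0 to 4, 0 to 3 and 0 to 2 sites in the 3 contrasts, the highest without galactose replicate 1 in both galactose contrasts (4 and 3 of 6, where 26.6 and 25.4% of all sites were called) and without wild type replicate 2 in glucose minus wild type (2 of 6, 17.2%). The cause was not tested.

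Time differences that turned direction were as follows. HTA1-HTB1, galactose minus glucose, was -6.62 min as deposited and 14.4 min after centring each chromosome (14.2 min in 10 kb windows, 31.5 percentage points on ranks within the chromosome, and 13.7 to 15.2 min with that centring and 1 replicate left out). HHT2-HHF2, galactose minus glucose, was 3.27 min with that centring and without galactose replicate 2. Glucose minus wild type with that centring was -0.991 min for HTA2-HTB2 (-0.92 in 10 kb windows, -2.01 without wild type replicate 1) and -0.417 min for HHT1-HHF1 (-0.293 in 10 kb windows, -2.14 without wild type replicate 1, and -0.617 percentage points on ranks). It was -1.07 min for HTA1-HTB1 with that centring and without wild type replicate 1, and -0.0684 min for HHT1-HHF1 as deposited without that replicate (1.46 without the other). For the rightward share of HHT1-HHF1, galactose minus glucose was 0.0020 on the arcsine scale, 0.0385 in 10 kb windows and 0.134 without galactose replicate 1 (-0.138 without the other), and galactose minus wild type was 0.0559 without it (-0.216 without the other). For HTA1-HTB1, galactose minus wild type was 0.0352 without galactose replicate 2 (-0.656 without the other), and glucose minus wild type was -0.0368 in windows from base 1. Without galactose replicate 2, galactose minus wild type was -1e-06 at the site of HHT1-HHF1 and 0.0151 at that of HTA1-HTB1 (0.0546 and -0.647 without the other). A rank over the genome orders windows of chromosomes that share no zero of time, so it gives no place in a replication order. Ranked in its own chromosome in place of the genome, the mean rank of a pair went in galactose from 32.1 to 43.5% for HTA2-HTB2, from 29.4 to 39.8% for HHT1-HHF1 and from 87.8 to 66.9% for HTA1-HTB1. It went from 88.3 to 35.4% for HTA1-HTB1 in glucose, and in wild type from 0.147 to 0% for HTA2-HTB2, from 9.98 to 11.5% for HHT2-HHF2 and from 14.8 to 2.79% for HTA1-HTB1, the last within the SD of 18.3. With 10 kb windows it was 31.9% for HHT1-HHF1 in galactose and 0.336% for HTA2-HTB2 in wild type. Without read counts, no limit from depth can be given, and 2 residual degrees of freedom limit every test.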
